A study of Mus musculus with 6 samples.

Results

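The 10 genes described here carry the RANKL signal from bone-forming cells to osteoclasts, or serve the osteoclast itself. They were listed by name, with no threshold on measured values, though earlier results of these data were known: Tnfsf11, Tnfrsf11b and Csf1 as regulators that osteoblasts can make, Tnfrsf11a and Nfatc1 as the receptor and the transcription factor of the responding cell, and Acp5, Ctsk, Mmp9, Dcstamp and Atp6v0d2 as osteoclast effectors. All 10 were measured, among 22180 genes with a probe set of a single gene symbol, and each had 1 such probe set. Each of 6 arrays read 1 sample, and the titles place 3 in chronic (CML) and 3 in acute myeloid leukemia (AML). Cells labelled as osteoblastic had been sorted from the bone marrow of leukemic mice with the Col2.3 GFP genotype, which all 6 samples share. In that reporter a fragment of the Col1a1 promoter drives green fluorescent protein in the bone-forming lineage. The source name of every sample says CML, against the titles of the 3 AML samples; the titles and the series design were followed, and every direction below rests on them. Strain, age and the way each leukemia was induced are not given in the sources used here, nor is it said whether each sample is a mouse of its own; the p-values therefore rest on a spread that may be technical.

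Osteoclasts are large multinucleated cells that arise by fusion of monocyte and macrophage precursors and dissolve bone. Cells of the osteoblast lineage make RANKL, the product of Tnfsf11, which binds RANK (Tnfrsf11a) on the precursors, and osteoprotegerin (Tnfrsf11b), a secreted decoy that catches RANKL. M-CSF, the product of Csf1, keeps the precursors alive. RANK signalling with help from ITAM adaptors raises NFATc1, which switches on genes for bone dissolution. Among these are Acp5 (tartrate-resistant acid phosphatase) and Ctsk (cathepsin K, a collagen-cutting protease). Mmp9 encodes a gelatinase that neutrophils also store in granules, Dcstamp a membrane protein needed for cell fusion, and Atp6v0d2 a subunit of the proton pump.

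The sorted cells carried high signals of bone matrix genes and of leukocyte genes on every array. Col1a2 lay at a mean log2 intensity of 11.54 in CML and 10.43 in AML, Col1a1 at 10.30 and 8.59, and Ibsp, which encodes bone sialoprotein, at 9.38 and 8.50. The neutrophil markers S100a8 and S100a9 lay between 11.34 and 12.13 in the group means. The mean log2 level of 9 of 11 listed osteoblast markers ran from 6.39 to 8.92 on the CML arrays and from 5.75 to 7.17 on the AML arrays, highest on CML 3. Lists of leukocyte markers were higher on all AML arrays than on any CML array: the level of 3 of 3 pan-leukocyte genes spanned 6.31 to 8.38 in CML and 8.51 to 9.39 in AML, that of 12 of 12 neutrophil and precursor genes 8.03 to 9.30 and 9.56 to 10.09, and that of 11 of 11 monocyte and macrophage genes 5.03 to 5.31 and 5.65 to 6.45. Their brightest genes were Coro1a, Laptm5 and Ptprc, then S100a8, S100a9 and Camp, and then Itgam, Cd68 and Ccr2. Of these, S100a8 and Ptprc overlapped between the groups. In the neutrophil and precursor list 10 genes were higher in AML and 2 lower by value. For 7 of the 12 all AML arrays lay above all CML arrays, against 13.3% of all genes. Elane, Prtn3 and Mpo, named after their values were seen, changed by 3.85, 3.14 and 2.65. Ltf, Mmp8 and Cxcr2, named likewise, changed by 0.30, -0.54 and -0.68, and S100a8 by 0.13. The monocyte and macrophage list was mixed gene by gene, with 6 higher and 5 lower by value: Mrc1, Fcgr1 and C1qa, macrophage genes named after their values were seen, lay lower on all AML arrays than on any CML array, and C1qb and Mertk, named likewise, were lower by value. The lists of lymphocyte (7 of 8 measured, brightest Cd79b, Cd79a and Cd4), erythroid (2 of 5, Klf1 and Epb42), endothelial (5 of 5, Pecam1, Cdh5 and Kdr) and reticular genes (6 of 6, Cxcl12, Pdgfrb and Ebf3) overlapped between the groups. Their levels over the 6 arrays spanned 3.71 to 5.05, 4.57 to 8.82, 4.06 to 4.55 and 4.28 to 5.03. In bulk samples, fewer cells of a type and less RNA per cell cannot be told apart. The part of these shifts in the results below was not tested.

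Array intensities have no true zero, and probe sets differ in affinity, so levels are not set against each other as amounts. As a yardstick for dim signals, 1390 olfactory and vomeronasal receptor genes, known from sensory neurons, were read on the same arrays; this yardstick was chosen after the data were seen. The 95th percentile of these genes, on the log2 scale, was 4.92, 4.70 and 5.10 on CML 1 to 3. On AML 1 to 3 it was 4.35, 4.55 and 4.35, lower than on any CML array. Their median was lower there too, 2.49 to 2.56 against 2.69 to 2.71. The part of this shift in the dim readings below was not tested. Acp5 and Mmp9 were above the 95th percentile of their array on all 6 arrays and Nfatc1 on 5. Tnfrsf11b exceeded it on 4 arrays, CML 1 and the 3 AML arrays. Csf1 exceeded it on AML 1 and AML 2, and Ctsk on CML 3 and AML 1. Tnfsf11, Tnfrsf11a, Dcstamp and Atp6v0d2 exceeded it on 0 of 6 arrays, so their values may hold little signal and their differences are given with that limit. The same limit holds for Mrc1, named above, which read 3.49 to 4.04 and lay under the yardstick on every array.

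**Figure D1:**
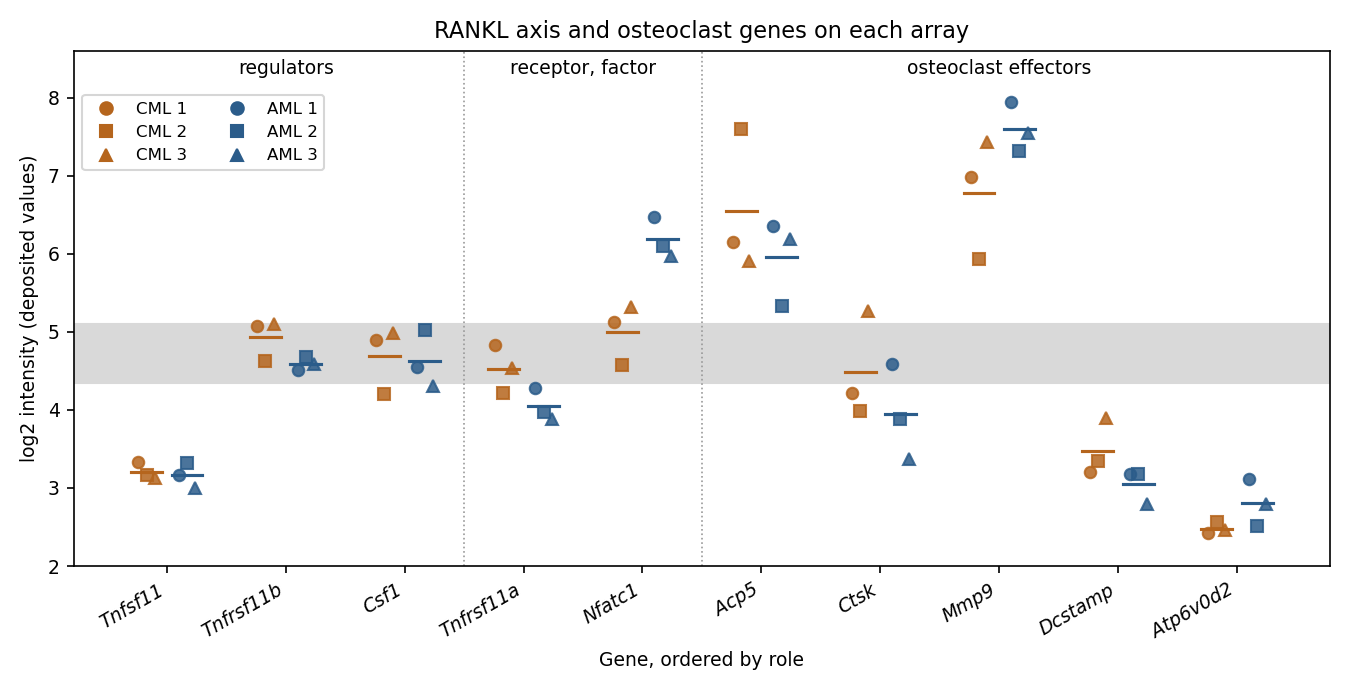
Log2 intensity of each of the 10 genes (horizontal axis, ordered by role) on the 3 CML arrays (brown) and 3 AML arrays (blue); circles, squares and triangles are replicates 1, 2 and 3, short bars are group means, and the grey band spans the 95th percentiles of olfactory and vomeronasal receptor genes over the arrays (4.35 to 5.10). Nfatc1 is the gene whose AML points all lie above its CML points, Acp5 has 1 high point at 7.60 on CML 2, and Tnfsf11 stays between 3.00 and 3.33.

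The upstream windows of Acp5 and Ctsk are shown because both genes are known targets of NFATc1. Also, the Nfatc1 probe set read higher on the AML arrays while theirs did not. Of the other effectors, which had no window, Mmp9 and Atp6v0d2 were higher in AML by value (0.82 and 0.33) and Dcstamp lower (-0.43). RefSeq tables of build GRCm38.p6 gave 7 windows for 5 of the 10 genes (Tnfsf11, Csf1, Tnfrsf11a, Acp5 and Ctsk), each of 250 bases upstream of a transcript start. Capitals mark matches, on either strand, to TGGAAA (NFAT core), GAGGAA (PU.1 core), TGANTCA (AP-1) or the E-boxes CATGTG and CACGTG; none of the marked matches overlap. The Acp5 window lies on the minus strand at chr9:22130599-22130848 and is 1 of 3 windows of that gene, and the Ctsk window on the plus strand at chr3:95498960-95499209.
Acp5: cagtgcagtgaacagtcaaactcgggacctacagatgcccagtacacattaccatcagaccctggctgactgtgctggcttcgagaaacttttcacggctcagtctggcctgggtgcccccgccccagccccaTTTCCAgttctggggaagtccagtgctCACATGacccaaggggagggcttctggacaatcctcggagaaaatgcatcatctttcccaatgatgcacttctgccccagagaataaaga
Ctsk: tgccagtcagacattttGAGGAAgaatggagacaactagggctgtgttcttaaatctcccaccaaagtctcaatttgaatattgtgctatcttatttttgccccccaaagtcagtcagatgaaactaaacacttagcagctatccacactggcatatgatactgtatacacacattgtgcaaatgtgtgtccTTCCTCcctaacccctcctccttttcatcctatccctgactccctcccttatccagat

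The Acp5 window holds 1 NFAT core match, on the opposite strand, beginning 117 bases before the start, and 1 CATGTG match beginning 90 bases before it. The Ctsk window holds 2 PU.1 core matches, beginning 233 and 58 bases before the start, the second on the opposite strand. Among all 32851 windows of the table, 18.6% hold the NFAT core, 23.3% the PU.1 core, 12.3% CATGTG, 6.75% the AP-1 motif and 6.02% CACGTG. The other 5 windows of these genes hold none of the 5 motifs, which says only that these letters are not in them.

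Across the 10 genes, 0 reached an adjusted p under 0.05 for AML against CML (limma), where 1.91% of all genes did, and 1 had an unadjusted p under 0.05, where 21.5% did. The groups did not overlap for 2 of the 10, Nfatc1 with all AML arrays above and Dcstamp with all AML arrays below, against 31.3% of all genes. By value 3 genes were higher in AML and 7 lower, with a median log2 change of -0.20 against -0.11 for all genes. Of all 22180 genes, 8493 were higher by value and 13687 lower. The median of all genes went to -0.03 after quantile normalization, 0.04 after median centring and -0.007 after cyclic loess, so changes near these sizes depend on the scaling. The limma count over all genes was 423. It was 0 when CML 3, AML 1 or AML 2 was left out (3532, 3043 and 3751 genes, in that order, with an unadjusted p under 0.05).

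**Figure D2:**
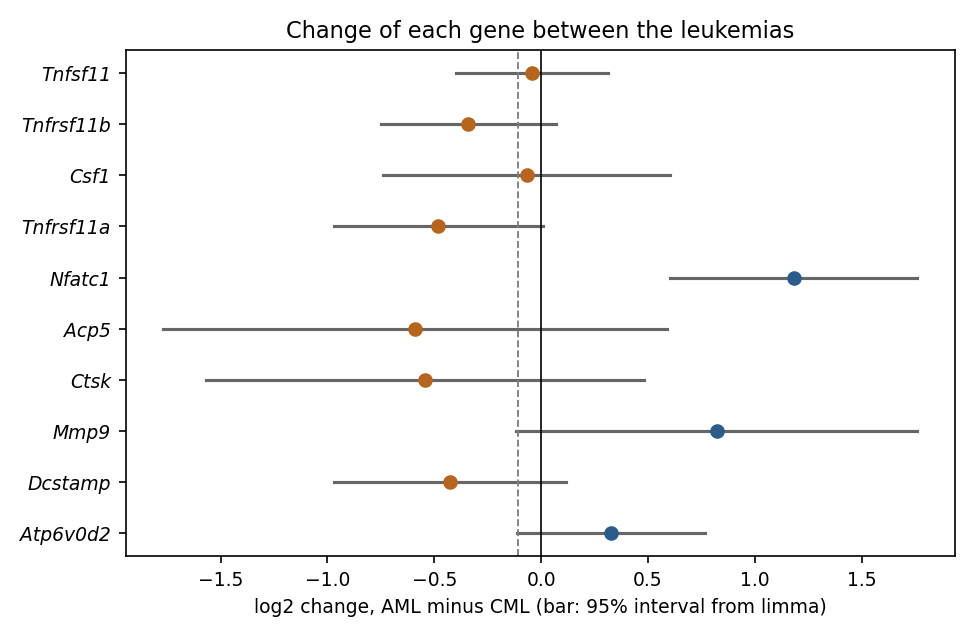
Log2 change, AML minus CML, of each gene (vertical axis) with its moderated 95% interval from limma; the solid line marks 0 and the dashed line the median of all genes at -0.11. The Nfatc1 interval runs from 0.60 to 1.76, and the other 9 intervals include 0.

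Nfatc1, the master transcription factor of osteoclast formation, had the largest change of the 10 genes and the lowest p. Its log2 intensities were 5.12, 4.57 and 5.32 on CML 1 to 3 and 6.48, 6.10 and 5.97 on AML 1 to 3. All AML arrays lay above all CML arrays, with the lowest AML array 0.66 log2 units above the highest CML array. Mean values were 6.18 ± 0.26 for AML and 5.0025 ± 0.39 for CML (SD, n = 3 each), a log2 change of 1.18 ± 0.24 (SE) or 2.27-fold, which did not pass (limma adjusted p = 0.0670). With 1 array left out the change ran from 0.96 to 1.34 and passed in 0 of 6 fits. After median centring it was 1.33 and passed (limma adjusted p = 0.0340), while after quantile normalization and cyclic loess it was 1.10 and 1.11 and did not. NFATc1 also acts in lymphocytes and other cells.

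The receptor RANK gave the opposite sign by value. Tnfrsf11a read 4.83, 4.22 and 4.53 on CML 1 to 3 and 4.28, 3.97 and 3.89 on AML 1 to 3. The lowest CML array fell below the highest AML array, so the groups overlapped, with a gap of -0.06 log2 units between these arrays. The change was -0.48 ± 0.20 (SE; limma adjusted p = 0.237), with a 95% interval from -0.97 to 0.009, at levels below the olfactory receptor yardstick on every array. After cyclic loess it was -0.28.

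The RANKL ligand itself showed the narrowest spread of the 10 genes. Tnfsf11 read 3.33, 3.17 and 3.12 on CML 1 to 3 and 3.17, 3.33 and 3.00 on AML 1 to 3. The groups overlapped throughout, and the range over the 6 arrays was 0.32 log2 units against a median range of 0.80 for all genes. The log2 change was -0.04 ± 0.15 (SE; limma adjusted p = 0.874), with a 95% interval from -0.40 to 0.31, and its sign turned under all 3 other scalings, to between 0.11 and 0.14. These readings lay under the dim yardstick on every array, so a difference in RANKL transcript may not have been detectable on this probe set.

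Osteoprotegerin was lower in AML by value. Tnfrsf11b read 5.07, 4.63 and 5.09 on CML 1 to 3 and 4.51, 4.67 and 4.59 on AML 1 to 3. CML 1 and CML 3 were above all AML arrays, while CML 2 lay among them. Against the dim yardstick, itself lower on the AML arrays, Tnfrsf11b was above on all 3 AML arrays but among the CML arrays only on CML 1. The change was -0.34 ± 0.17 (SE; limma adjusted p = 0.288), with a 95% interval from -0.75 to 0.07, and it stayed negative in all 16 alternatives, from -0.49 to -0.19.

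The balance of ligand to decoy was followed as log2 Tnfsf11 minus log2 Tnfrsf11b within each array, a quantity that median scaling of an array cannot move. It was -1.74, -1.46 and -1.97 on CML 1 to 3 and -1.35, -1.35 and -1.59 on AML 1 to 3. AML 1 and AML 2 were above all CML arrays, while AML 3 lay within the CML range. The group means were -1.73 ± 0.26 and -1.43 ± 0.14 (SD, n = 3 each), 0.30 apart, and with 1 array left out the difference ran from 0.18 without CML 3 to 0.43 without CML 2. This difference is made of a change of -0.04 in Tnfsf11 and a change of -0.34 in Tnfrsf11b, which enters with the opposite sign. No test was made of it, the Tnfsf11 readings lay under the dim yardstick on every array, and the difference gives no amount of either transcript.

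Csf1, the macrophage growth factor, did not separate the leukemias. It read 4.90, 4.20 and 4.98 on CML 1 to 3 and 4.55, 5.03 and 4.30 on AML 1 to 3. The highest and the lowest arrays were AML 2 and CML 2, and the groups overlapped fully. Only AML 1 and AML 2 were above the dim yardstick. The log2 change was -0.07 ± 0.28 (SE; limma adjusted p = 0.892), with a 95% interval from -0.74 to 0.60 and a sign that turned under all 3 other scalings. The 3 regulators together had a median change of -0.07, which with 1 array left out ran from -0.31 (without CML 2) to 0.040 (without AML 3).

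Among the effectors, Acp5 gave its high reading on a single CML array. Its log2 intensities were 6.15, 7.60 and 5.91 on CML 1 to 3 and 6.36, 5.33 and 6.19 on AML 1 to 3. CML 2 stood 1.24 above the next array, AML 2 was lowest, and the other 4 arrays lay between 5.91 and 6.36. The change of -0.59 ± 0.49 (SE; limma adjusted p = 0.471) went to -0.07 without CML 2, to -0.28 without AML 2 and to -0.91 without CML 3. CML 2 was also the array with the lowest pan-leukocyte level, 6.31, and the lowest neutrophil level, 8.03. AML 1, with the highest pan-leukocyte level, 9.39, had the next highest Acp5 reading, 6.36. The part of those cells in the Acp5 values was not tested.

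Mmp9 ran the other way on that array. It read 6.98, 5.93 and 7.43 on CML 1 to 3 and 7.94, 7.31 and 7.54 on AML 1 to 3. CML 2 was lowest and AML 1 highest, and CML 3 lay above AML 2, so the groups overlapped. Mean values were 7.60 ± 0.32 for AML and 6.78 ± 0.77 for CML (SD, n = 3 each), a log2 change of 0.82 ± 0.39 (SE) or 1.77-fold (limma adjusted p = 0.271), which went to 0.40 without CML 2 and to 0.50 after cyclic loess. The low CML 2 reading coincided with the lowest level of the neutrophil list, 8.03, and the high AML 1 reading with its highest, 10.09. The other arrays did not keep the same order. AML 2, with a list level of 10.065, read 7.31 for Mmp9, below the 7.43 of CML 3, whose list level was 9.30. Mmp9 is a neutrophil granule gene as well as an osteoclast gene, and the part of the neutrophil genes in its values was not tested.

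Ctsk, the collagen-degrading protease most closely tied to bone resorption, was highest on CML 3. It read 4.22, 3.98 and 5.27 on CML 1 to 3 and 4.58, 3.88 and 3.37 on AML 1 to 3. CML 3 stood 0.69 above AML 1, the next array, and AML 3 was lowest. Only CML 3 and AML 1 were above the dim yardstick, so the order of the other arrays may hold little signal. The log2 change of -0.54 ± 0.43 (SE; limma adjusted p = 0.450) went to -0.15 without CML 3, to -0.26 without AML 3, to -0.86 without AML 1 and to -0.34 after cyclic loess. The osteoblast marker list was likewise highest on CML 3, at 8.92, and lowest on AML 3, at 5.75. Between these extremes the order differed: AML 1 read 4.58 for Ctsk at a list level of 6.30, and AML 2 read 3.88 at 7.17. The part of the osteoblast markers in the Ctsk values was not tested.

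Dcstamp, the fusion gene, shared both extremes with Ctsk. It read 3.20, 3.34 and 3.89 on CML 1 to 3 and 3.18, 3.18 and 2.79 on AML 1 to 3. The groups did not overlap, but only 0.02 log2 units parted CML 1 from AML 1, and all AML arrays lay below all CML arrays for 17.9% of all genes. The change was -0.43 ± 0.23 (SE; limma adjusted p = 0.304) and went to -0.22 without CML 3 and to between -0.28 and -0.24 under the 3 other scalings. Atp6v0d2, the proton pump subunit, was the dimmest of the 10 probe sets, from 2.42 to 2.56 on the CML arrays and from 2.51 to 3.12 on the AML arrays. AML 1 and AML 3 were above all CML arrays, AML 2 lay within the CML range, and the change was 0.33 ± 0.18 (SE; limma adjusted p = 0.322), or 0.17 without AML 1.

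The 5 effectors shared no direction by value. Mmp9 and Atp6v0d2 were higher in AML and Acp5, Ctsk and Dcstamp lower, with a median log2 change of -0.43 that with 1 array left out ran from -0.57 (without CML 1) to -0.07 (without CML 2). Their highest readings fell on 3 different arrays: CML 2 for Acp5, CML 3 for Ctsk and Dcstamp, and AML 1 for Mmp9 and Atp6v0d2.

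**Figure D3:**
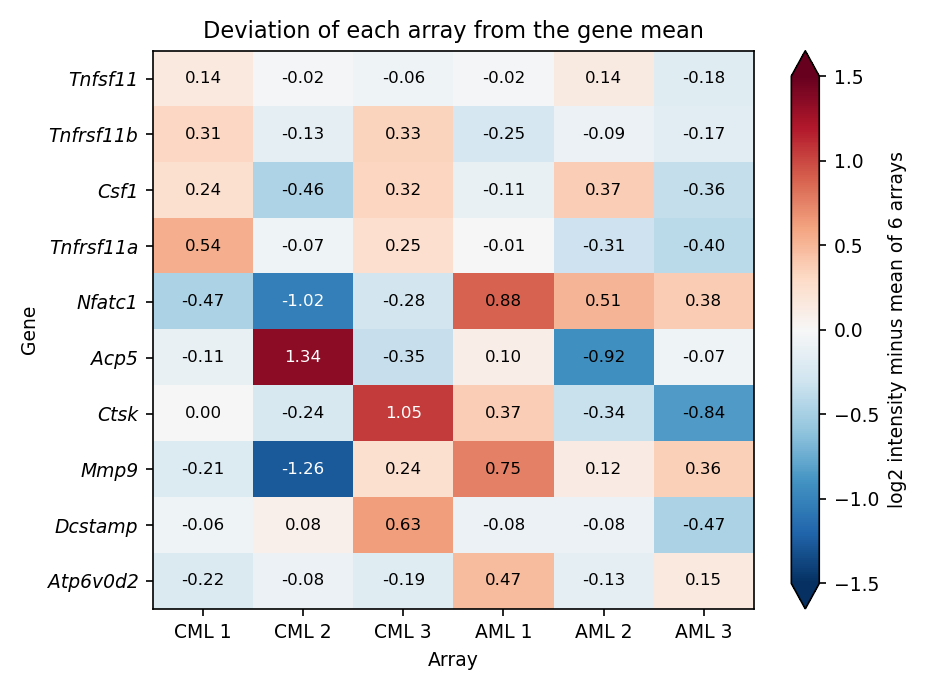
Log2 intensity of each gene (rows) on each array (columns) minus that gene's mean over the 6 arrays, with red above and blue below the mean and the value printed in each cell. Acp5 stands at 1.34 and Mmp9 at -1.26 on CML 2, Ctsk at 1.05 and Dcstamp at 0.63 on CML 3, and Nfatc1 is below 0 on the 3 CML arrays and above 0 on the 3 AML arrays.

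Of 81 further genes of osteoclast formation and function, 76 were measured, and 2 of them rose in AML while 0 fell (limma, adjusted p under 0.05 over all genes; 1.83% of all genes rose and 0.0812% fell). At an unadjusted p under 0.05, 21 were higher and 4 lower, where 12.6% and 8.99% of all genes were. The 76 genes had a median log2 change of 0.27 against -0.11 for all genes. They were brighter than most, with a median at percentile 72.9 of mean level. The brighter 50% of all genes had a median change of 0.17, so much of the gap to -0.11 is shared by bright genes. By value 46 of them were higher and 30 lower, where 8493 of 22180 genes were higher and 13687 lower. The count of calls was 0 after quantile normalization and after cyclic loess, and 9 after median centring. Leaving out 1 array gave 0 calls without CML 3, AML 1 or AML 2, and 2 or 3 without CML 1, CML 2 or AML 3.

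Both genes that rose encode transcription factors. Spi1, which encodes PU.1, a transcription factor that macrophages and osteoclasts both require, read 6.41, 6.66 and 7.25 on CML 1 to 3 and 9.07, 9.02 and 8.12 on AML 1 to 3. Its groups lay apart, with a log2 change of 1.97 ± 0.33 (SE; limma adjusted p = 0.0453). Bcl6, a transcriptional repressor that holds back osteoclast genes and that B cells and other leukocytes also use, read 4.46, 3.81 and 4.86 on the CML arrays and 6.47, 6.76 and 5.99 on the AML arrays. The groups did not overlap for it either, with a log2 change of 2.03 ± 0.32 (SE; limma adjusted p = 0.0393). Each of the 2 kept its sign in all 16 alternatives and passed in 1 of 6 fits with 1 array left out, Spi1 without AML 3 and Bcl6 without CML 2. After quantile normalization and cyclic loess neither passed.

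Receptors and ITAM signalling genes of the precursor cell were mostly higher in AML by value. Of 12 measured, 10 were higher and 2 lower, and for 8 all AML arrays lay above all CML arrays, where 13.3% of all genes did so. None of the 12 passed in limma, and the median log2 change was 1.21. At an unadjusted p under 0.05, 8 were higher and 0 lower, where 12.6% and 8.99% of all genes were. Csf1r, the receptor of M-CSF, read 4.92, 4.99 and 5.26 on CML 1 to 3 and 6.73, 7.60 and 6.15 on AML 1 to 3. The change was 1.77 ± 0.36 (SE; limma adjusted p = 0.0659), and it passed after median centring, under both level filters and without AML 3. Tyrobp, which encodes the ITAM adaptor DAP12, had a change of 2.60 ± 0.53 by value (SE; limma adjusted p = 0.0662), with 7.35 to 9.51 on the CML arrays and 10.72 to 11.37 on the AML arrays. It passed in 6 of 16 alternatives: median centring, both level filters, array weights, and without CML 1 or CML 2. These genes are shared with monocytes, macrophages and neutrophils, whose marker lists had higher mean levels on the same AML arrays, although 5 of the 11 monocyte and macrophage genes were lower by value (log2 changes from -0.75 for C1qb to -0.21 for Mertk). The part of those cells was not tested.

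Genes for acid, matrix degradation, fusion and attachment were also mostly higher in AML by value. Of 21 measured, 16 were higher and 5 lower in AML by value with a median of 0.67, and none passed in limma. At an unadjusted p under 0.05, 7 were higher and 1 lower, where 12.6% and 8.99% of all genes were. All AML arrays lay above all CML arrays for 8 and below them for 2, against 13.3% and 17.9% of all genes. Acp2, a lysosomal acid phosphatase, was 1.60 ± 0.34 higher and Tcirg1, a subunit of the proton pump, 1.63 ± 0.36 higher by value (SE; limma adjusted p = 0.0739 and 0.0770). Tcirg1 read 6.15, 5.32 and 6.06 on CML 1 to 3 and 7.85, 7.79 and 6.79 on AML 1 to 3, with no overlap. Calcr and Ocstamp, named after their values were seen, encode the calcitonin receptor and a second fusion protein of osteoclasts. Calcr read 3.45 to 3.70 in CML and 3.16 to 3.35 in AML, under the dim yardstick on every array, and Ocstamp 4.43 to 4.73 and 4.36 to 4.55. Their changes were -0.32 ± 0.14 and -0.15 ± 0.15 (SE; limma adjusted p = 0.240 and 0.519). The 5 lower genes of the list also held Siglec15 and Car2, named likewise. Siglec15 changed by -0.58 ± 0.18 and Car2 by -2.59 ± 1.33 (SE; limma adjusted p = 0.152 and 0.293).

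The list of transcription factors, Spi1 included, showed no shared direction. Of 14 measured, 8 were higher and 6 lower by value, with a median of 0.05. The list of brakes on osteoclast formation, to which Bcl6 belongs, had 6 of 7 measured genes higher by value and a median of 0.78. Of 22 stromal and cytokine regulators, 6 were higher and 16 lower by value, with a median of -0.17. Genes lower by value also outnumbered higher ones over the whole array, 13687 against 8493, with a median of -0.11. None of these 22 passed in limma. At an unadjusted p under 0.05, 0 were higher and 3 lower, where 12.6% and 8.99% of all genes were. Ephb4, a receptor through which osteoclasts signal back to osteoblasts, and Il10, an anti-inflammatory cytokine, had the lowest p of the list, at -0.52 ± 0.14 and -0.74 ± 0.23 (SE; limma adjusted p = 0.114 and 0.157), both at dim levels, with group means of 3.52 and 4.05 for Ephb4 and 3.20 and 3.94 for Il10.

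**Figure D4:**
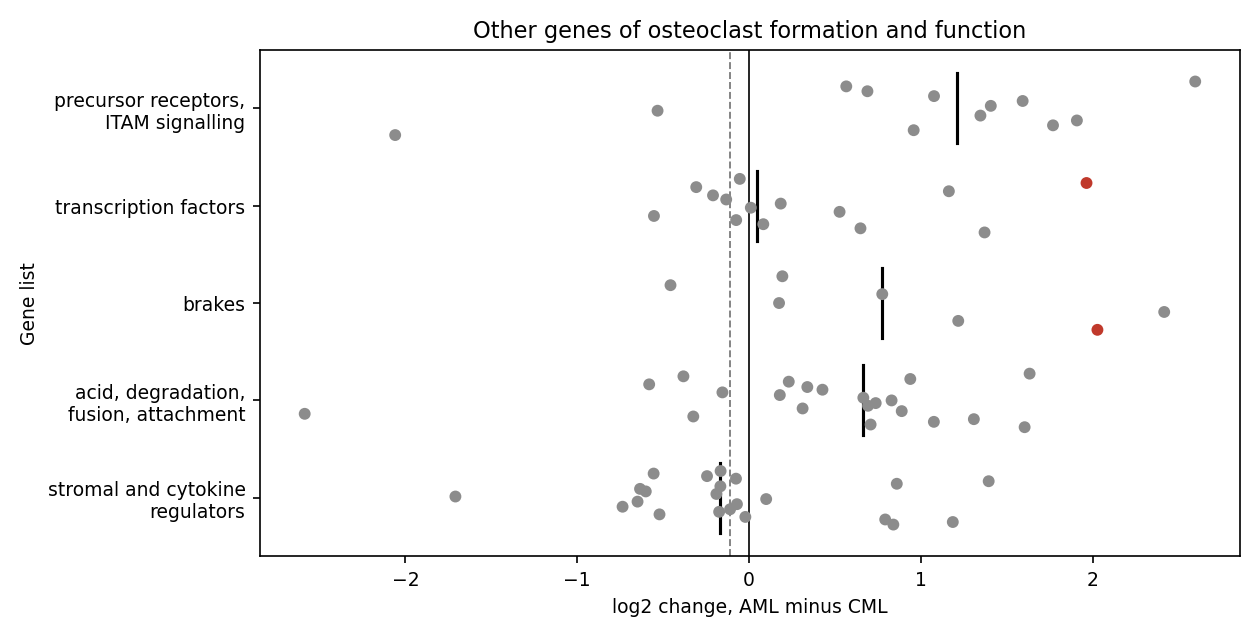
Log2 change, AML minus CML, of each of 76 measured genes (points) in 5 lists (vertical axis); red points passed an adjusted p of 0.05 in limma, black bars are list medians, and the dashed line is the median of all genes at -0.11. The medians run from -0.17 for stromal and cytokine regulators to 1.21 for precursor receptors and ITAM signalling, and the 2 red points are Spi1 and Bcl6.

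**Figure D5:**
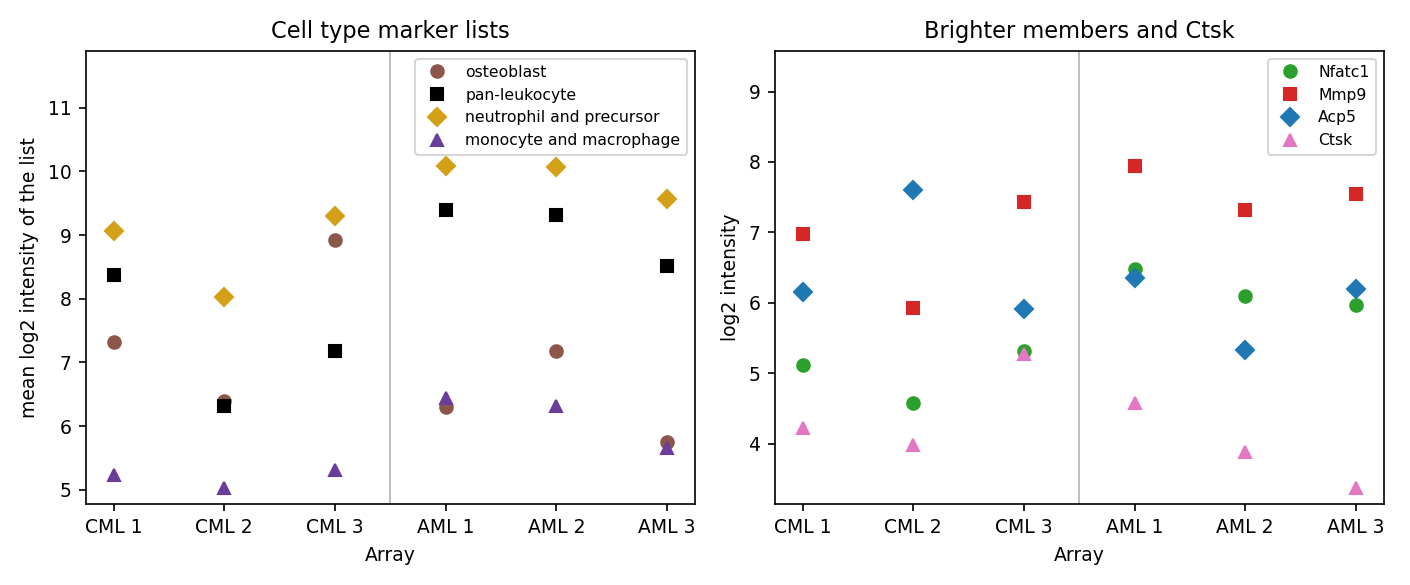
Left, mean log2 intensity of 4 marker lists on each array (horizontal axis), and right, log2 intensity of Nfatc1, Mmp9, Acp5 and Ctsk on the same arrays. The neutrophil list and Mmp9 are both lowest on CML 2, and the osteoblast list and Ctsk are both highest on CML 3 and lowest on AML 3. Other arrays differ in order: AML 2 has a neutrophil level of 10.065 with Mmp9 at 7.31, and AML 1 an osteoblast level of 6.30 with Ctsk at 4.58.

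The genes whose pattern over the 6 arrays was most like that of a member differed from member to member. Likeness was the Pearson correlation of log2 values over the 6 arrays, which share groups and scaling, searched among about the brighter 50% of genes, and with 6 points high values arise easily among so many genes. Mmp9 was most like Mrgpra2a, Agap1 and Bicral, and Ctsk most like Bcar3, Ephb3 and Ntn1. Acp5 was most like Prcc, Vmp1 and Got1, Tnfrsf11b most like Wnt6, Fbxo21 and Gnai1, and Tnfsf11 most like Lrrc18, Fam171a2 and Pik3c2b. The 15 correlations ran from 0.960 to 0.995.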

How the data were processed

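One Affymetrix array per sample measured RNA from primary sorted bone marrow cells, per the labels' protocols. Tools named in the submitters' processing notes are limma and lumi, without step or version. The deposited table holds linear intensity values from 2.71 to 8583, with background correction, summarisation and normalization not given in the sources used here. Array medians differed, and no detection p-value was used. Groups came from the titles.

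Of 39721 probe sets, 23521 had 1 gene symbol, and for each of 22180 genes the probe set of highest mean was kept. Each of the 10 members had 1 probe set. Log2 intensities were fitted in limma 3.58.1 (R 4.3.3, lmFit and eBayes) with no filter or covariate and 4 residual degrees of freedom, two-sided, Benjamini-Hochberg adjusted over all genes, threshold 0.05. Standard errors and 95% intervals are moderated. The fit was also run on simulated data, independent noise with added changes larger than that of any member. That run does not cover changes as small as those reported here.

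The members and lists were chosen with earlier results of these data known. Named genes were the members, list genes past the threshold (or the 2 with the lowest p of a list with none), the 3 brightest markers of each list, and the 3 genes most like each of 5 members; genes named after their values were seen are marked as such. Alternatives were 3 scalings, 2 level filters, 2 probe set rules, trend with robust moderation, array weights, each array left out in turn and a replicate block. Promoter windows of 250 bases came from RefSeq tables of build GRCm38.p6. Figures used matplotlib 3.10.9 under Python 3.11.15.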

Additional observations from a re-analysis of the deposited data

How the results depend on the processing

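Over all 16 alternatives, 8 of the 10 genes kept the sign of their change wherever they were tested; Tnfsf11 and Csf1 did not. After quantile normalization, median centring and cyclic loess, Tnfsf11 changed by 0.11, 0.11 and 0.14 and Csf1 by 0.032, 0.082 and 0.077. With 1 array left out, Tnfsf11 ran from -0.12 to 0.040 and Csf1 from -0.31 to 0.10. The number of the 10 genes called in limma was 1 after median centring (Nfatc1, at 1.33) and 0 in every other alternative. At an unadjusted p under 0.05 it was 1 to 3. In the alternatives that tested all 22180 genes, between 3043 (without AML 1) and 5570 (without CML 2) of them had an unadjusted p under 0.05. The 423 calls over all genes became 93 after quantile normalization, 896 after median centring, 64 after cyclic loess, 639 with array weights and 0 with the replicate block, and ran from 0 to 438 with 1 array left out. The 2 calls among the further osteoclast genes became 0, 9 and 0 under the 3 scalings, 6 in the brighter 50% and 4 in the brighter 70% of genes, 4 with array weights and 0 with the replicate block (28 at an unadjusted p under 0.05), and ran from 0 to 3 with 1 array left out. Same-numbered arrays correlated at 0.25, -0.30 and -0.25 in their deviations from the group means, and differently numbered ones at -0.28 to 0.475. With 3 arrays a group these deviations sum to 0, so the values cannot settle whether replicate numbers pair the samples. With the block the SE fell for Mmp9 (0.39 to 0.29), Tnfrsf11a (0.20 to 0.18) and Nfatc1 (0.241 to 0.235) and rose for the other members. The cause of the shifts in calls, signs and errors was not tested. Where a filter removed a dim gene (5 of the 10 genes in the brighter 50% and 3 in the brighter 70%), it gave no value. With 3 arrays a group and no detection p-value, signal near background limits Tnfsf11, Tnfrsf11a, Dcstamp and Atp6v0d2. It also limits Ctsk and Csf1, which exceeded the dim yardstick on 2 of 6 arrays each.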
